A study of Mus musculus with 30 samples.

Results

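The RNA of mouse embryonic stem (ES) cells without Jmj, the gene now named Jarid2, was set against that of ES cells with floxed Jmj alleles after 2 days without LIF. All arrays that the labels give to day 2 were taken, which are 7 of the 30 arrays of the series, 5 labelled null and 2 labelled Fl/Fl. The null cells are described as Jmj (-/-) mutant ES cells, and the Fl/Fl cells as Jmj (fl/fl) wild-type ES cells, so both carry an engineered Jmj locus. Which exons the null allele lacks is not stated in the labels. LIF withdrawal was the only treatment named, and day 0 cells of both genotypes, also used below, are the cells before it. The question of the comparison is which classes of genes already separated the genotypes at a time when most primitive streak genes, Mixl1 among them, were near the floor of the array. The labels call the arrays biological replicates without saying whether they came from separate cultures or clones, so a p-value here measures how far these samples scatter, and that scatter may be technical.

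Jarid2 belongs to PRC2, the Polycomb complex that methylates histone H3 and helps to keep developmental genes silent in ES cells. LIF is a cytokine added to keep mouse ES cells naive. When it is withdrawn, the cells pass through a formative stage that resembles the epiblast of the embryo just before gastrulation, then switch on primitive streak genes such as Mixl1 and Eomes. Simple epithelial keratins and contractile proteins build the cytoskeleton, annexins bind the inner face of the cell membrane, and several genes of these classes respond to cell spreading and tension through the SRF and YAP pathways.

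Each value is an Affymetrix intensity, the brightness of a probe set on a linear scale, and 1 probe set, that with the highest mean, stood for each of 18194 genes. Differences are log2(intensity + 4) in null minus Fl/Fl, and a fold is 2 raised to that difference, which makes folds of genes near the floor too small. A gene is said to have risen or fallen where limma's moderated test gave a Benjamini-Hochberg adjusted p under 0.05 over all genes. The arrays were alike in scale, with a median of 11 on each of the 7. The labelled cell type fitted its markers, since the summed intensity of 6 ES cell genes was 27486 to 32567 in null and 31723 to 34470 in Fl/Fl. Dppa5a and Pou5f1 make up most of that sum, so it hides differences of the others. Nanog was lower, and Sox2 and Fgf4 were higher, on every null array than on both Fl/Fl arrays, and 0 of the 6 passed the test. The null arrays were of different kinds before any comparison. The Y-linked gene Eif2s3y read 626, 710 and 696 on null replicates 3 to 5, 16 and 290 on null replicates 1 and 2, and 193 and 157 on the Fl/Fl arrays. The imprinted RNA Meg3 read 22, 36 and 21 on null replicates 3 to 5, 442 and 1147 on null replicates 1 and 2, and 903 and 1393 in Fl/Fl. The actin control probes gave a 3′ over 5′ ratio, a measure of RNA quality, of 1.35 to 1.376 on null replicates 3 to 5, 1.555 and 1.659 on the other null arrays, and 1.78 and 1.577 in Fl/Fl. The part of these differences in the results was not tested. Results are given below for 2 kinds of null array, with Eif2s3y above 500 (replicates 3 to 5) or not (replicates 1 and 2). Replicates 1 and 2 also differed from each other in Eif2s3y and Meg3, so the second kind is not uniform.

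Jarid2 itself was not lower on the arrays labelled null. It read 2226, 2797, 1754, 1979 and 2016 on the null arrays and 1467 and 1789 on the Fl/Fl arrays, a log2 difference of 0.39 ± 0.24 (SE, limma adjusted p = 0.677). The other probe sets of Jarid2 differed by 0.43 and 0.86, also upward. Whether these probes lie inside the deletion is not stated in the labels, so they do not check the genotype. The PRC2 subunits Ezh2, Suz12 and Eed, the enzyme of the complex and its core partners, differed by -0.10, 0.10 and 0.08 on the log2 scale (limma adjusted p = 1 for each).

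At day 2, 113 genes (0.621%) passed the test, of which 19 were higher in null (0.104%) and 94 lower (0.517%). At an unadjusted p under 0.05 there were 1755 genes (9.65%), the background for the counts at that limit given below. In 23 of the 113 both group means were under 20, at log2 differences of 0.15 to 0.54 and at levels where the deposited whole numbers are coarse steps. The unnamed transcript 1700001G11Rik, for example, read 2 on every null array and 3 on both Fl/Fl arrays. The genes with a mean of 50 or more in either group, 82 of the 113, carry the description below, with 15 higher and 67 lower in null. In 56 genes the difference was at least 2-fold, with 10 higher and 46 lower. All 113 genes kept their direction with null replicates 3 to 5 alone, where 110 of them passed, and with null replicates 1 and 2 alone, where 25 passed. In 90 of the 94 lower and 19 of the 19 higher genes no null array overlapped Fl/Fl. Any subset of the null arrays must keep the direction of those genes, so the kept direction is no independent support. The calls lean on the 2 Fl/Fl arrays and on a spread shared over all 30 arrays. Of the 113, 28 still passed without Fl/Fl replicate 1 and 57 without Fl/Fl replicate 2. Without null replicates 1 to 5 in turn, 108, 100, 75, 63 and 67 of them did. In a fit of the 7 day 2 arrays alone, 24 of them did. The gene lists counted below were chosen with earlier results of these data known. Their counts, ranks and medians therefore describe the lists and are no independent support for a class.

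**Figure D1:**
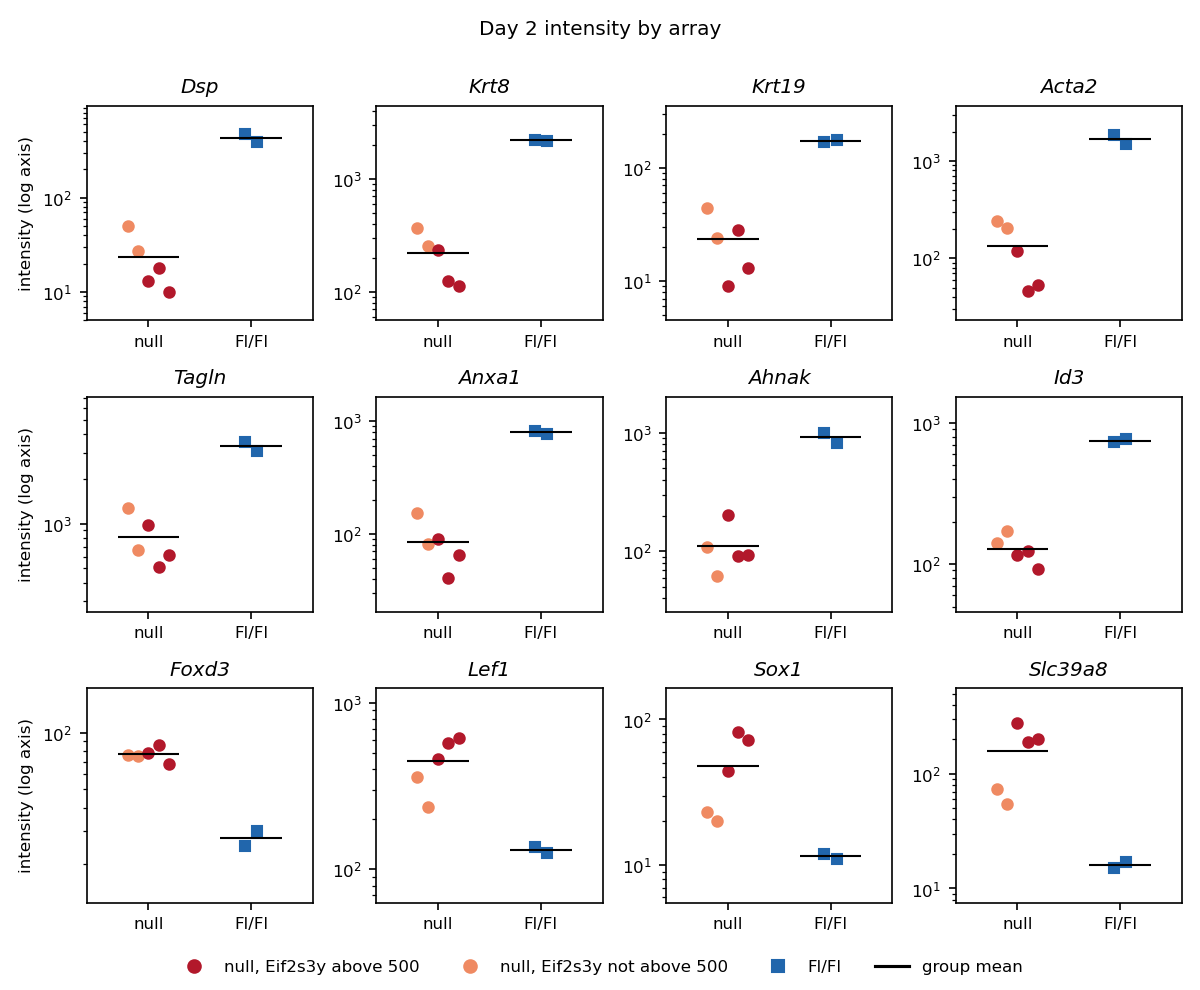
Intensity of 12 genes on each day 2 array (log axis), with null arrays to the left of Fl/Fl arrays, null arrays coloured by Eif2s3y above 500 or not, and a line at each group mean. The groups do not overlap in any panel; Dsp, Krt8, Krt19, Acta2, Tagln, Anxa1, Ahnak and Id3 are lower in null and Foxd3, Lef1, Sox1 and Slc39a8 are higher.

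The deepest fall was that of Dsp, an anchor of the keratin cytoskeleton, and simple epithelial keratins fell with it. Dsp encodes desmoplakin, which ties keratin filaments to desmosomes, and read 50, 27, 13, 18 and 10 on the null arrays, against 473 and 386 on the Fl/Fl arrays. That is a 17.6-fold lower level (log2 -4.14 ± 0.49 SE, limma adjusted p = 0.000141), and the highest null array lay far below both Fl/Fl arrays. Krt8 and Krt18 encode the obligate partners of the first keratin filament of the embryo. Krt8 read 371, 254, 237, 125 and 112 in null, against 2221 and 2169 in Fl/Fl (log2 -3.43 ± 0.43, limma adjusted p = 0.000283). Krt18 read 716, 696, 505, 438 and 405 in null, against 2716 and 2923 in Fl/Fl (log2 -2.38 ± 0.40, limma adjusted p = 0.00472). Krt19, a further simple epithelial keratin, read 44, 24, 9, 28 and 13 in null, against 168 and 176 in Fl/Fl (log2 -2.82 ± 0.37, limma adjusted p = 0.000412). In all of these genes null replicate 1 was the highest null array and every null array lay below both Fl/Fl arrays. Dsp, Krt8, Krt18 and Krt19 passed with either kind of null array and with any 1 day 2 array left out. Dsp, Krt8 and Krt19 missed the threshold in the fit of the 7 day 2 arrays alone (limma adjusted p of 0.0591, 0.0741 and 0.126), at the same log2 differences.

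Of the 15 measured keratins and keratin partners 0 rose and 3 fell, and 7 of the 15 had low levels throughout, so the median of the list was only -0.02. Among 28 measured desmosome, tight junction and adherens junction genes, 0 rose and Dsp alone fell. The median of that list was -0.36, against 0 over all genes, and in 16 of the 28 every null array lay below both Fl/Fl arrays, an order seen in 8.39% of all genes. Cldn4, a claudin of tight junctions, read 88, 167, 58, 122 and 60 in null, against 333 and 401 in Fl/Fl (limma adjusted p = 0.0821). Sfn, which encodes an epithelial member of the 14-3-3 family, was among the genes that fell outside the lists and was picked after its values were seen. It read 209, 165, 309, 172 and 172 in null, against 585 and 631 in Fl/Fl (log2 -1.59, limma adjusted p = 0.0294). The call of Sfn was lost without Fl/Fl replicate 1 or 2 (0.167 and 0.134) and without null replicate 4 or 5 (0.0702 and 0.0657).

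In the list of muscle-type actin and its partners most genes lay lower in null, but few passed the test. Of 32 measured genes of the contractile cytoskeleton, 0 rose and 5 fell, against 0.517% of all genes that fell, and the median difference was -0.84. In 25 every null array lay below both Fl/Fl arrays, an order seen in 8.39% of all genes. Acta2, smooth muscle actin and a target of the factor SRF, read 243, 204, 118, 46 and 53 on the null arrays, against 1844 and 1483 on the Fl/Fl arrays. The difference was 14.8-fold (log2 -3.88 ± 0.86, limma adjusted p = 0.0385), and without Fl/Fl replicate 1 it no longer passed (limma adjusted p = 0.299). Acta2 also failed the test without Fl/Fl replicate 2 (0.116) and without null replicates 3, 4 and 5 (0.0611, 0.0927 and 0.089). Tagln, an actin-binding protein of smooth muscle, read 1272, 662, 978, 513 and 615 in null, against 3547 and 3080 in Fl/Fl (log2 -2.11 ± 0.35, limma adjusted p = 0.00472). Acta2 and Tagln were low on all 5 null arrays, with the 2 lowest values on replicates 4 and 5.

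Tpm1, which encodes a tropomyosin that lies along actin filaments, averaged 1783 ± 339 in null and 4493 ± 216 in Fl/Fl (SD, n = 5 and 2; log2 -1.35, limma adjusted p = 0.00337). Csrp1, a LIM protein of actin bundles, averaged 507 ± 98.7 in null and 1492 ± 30.4 in Fl/Fl (log2 -1.57, limma adjusted p = 0.0296). Tagln2, a broadly expressed relative of Tagln, averaged 388 ± 51.5 in null and 836 ± 41.7 in Fl/Fl (log2 -1.11, limma adjusted p = 0.0187). Tagln, Csrp1 and Tagln2 missed the threshold without Fl/Fl replicate 1 (limma adjusted p of 0.0628, 0.23 and 0.109), while Tpm1 still passed (0.0449). Csrp1 and Tagln2 missed it without Fl/Fl replicate 2 as well (0.11 and 0.1), and Csrp1 without null replicates 4 and 5 (0.0712 and 0.0717). Acta1, skeletal muscle actin, read 18, 11, 92, 15 and 16 in null, against 204 and 173 in Fl/Fl, and did not pass (limma adjusted p = 0.0873). The medians of the contractile list on single null arrays, each against the Fl/Fl mean, were -0.45 on replicate 1, -0.65 on replicate 2, and -0.83, -0.96 and -1.07 on replicates 3 to 5. The list was thus shifted on every null array, less on those with low Eif2s3y. With null replicates 3 to 5 alone, 23 of the 32 fell and 1 rose, and with null replicates 1 and 2 alone 0 passed, at 2 arrays against 2. Over all 18194 genes, 1388 fell and 514 rose with replicates 3 to 5 alone, and 23 fell and 30 rose with replicates 1 and 2.

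**Figure D2:**
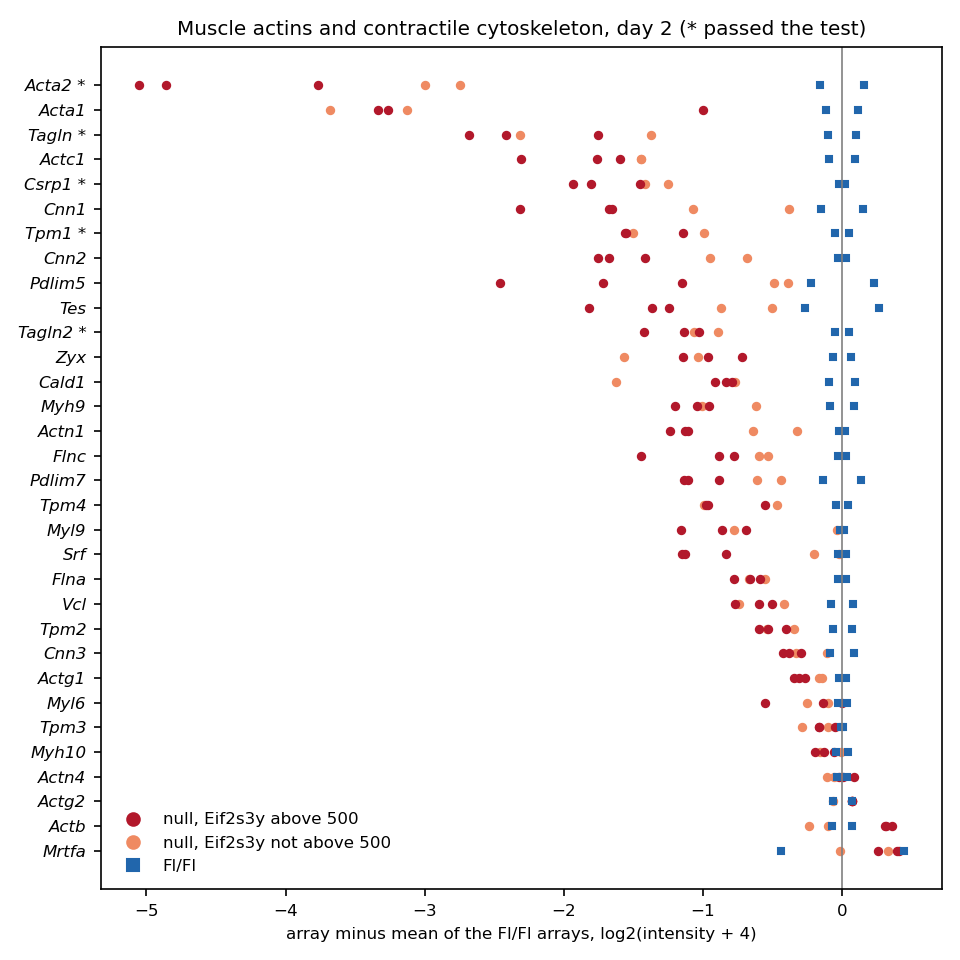
Each of the 32 measured genes of the contractile cytoskeleton by array, as log2(intensity + 4) minus the mean of the Fl/Fl arrays. Circles are null arrays, coloured by Eif2s3y above 500 or not, and squares are Fl/Fl arrays; an asterisk marks the 5 genes that passed the test. In 25 genes every circle lies left of both squares.

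Annexins bind phospholipid membranes when calcium rises, and S100 proteins are small calcium-binding partners of them. This was the list with the most calls, with 8 of 21 measured members lower in null and 0 higher, at a median of -0.68. Of all genes 0.517% were lower. Anxa1 read 152, 81, 90, 41 and 65 on the null arrays, against 820 and 772 on the Fl/Fl arrays (9.67-fold lower, log2 -3.27 ± 0.61, limma adjusted p = 0.0122). Ahnak, a giant scaffold protein that binds the complex of Anxa2 and S100a10 under the membrane, read 108, 62, 201, 92 and 93 in null, against 996 and 821 in Fl/Fl (log2 -3.08 ± 0.45, limma adjusted p = 0.00116). Anxa2 read 170, 156, 117, 141 and 131 in null, against 755 and 623 in Fl/Fl (log2 -2.24 ± 0.31, limma adjusted p = 0.000854). The null arrays of Anxa2 lay close together and far from both Fl/Fl arrays, and those of Anxa1 and Ahnak spread more widely without reaching them. S100a10, the partner of Anxa2, was abundant in both genotypes, with 1648 ± 280 in null and 2792 ± 144 in Fl/Fl (log2 -0.77, limma adjusted p = 0.0104).

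The other members that fell were Anxa3 (log2 -2.54, limma adjusted p = 0.00485), Anxa5 (-2.25, 0.023), S100a6 (-2.23, 0.036) and Lgals3 (-2.71, 0.00609). Lgals3 encodes galectin-3, which binds sugar chains, and read 19, 26, 10, 9 and 10 in null, against 133 and 94 in Fl/Fl. S100a6 read 339, 241, 181, 91 and 58 in null, against 711 and 741 in Fl/Fl, so its null arrays lay widely apart and below both Fl/Fl arrays. Ahnak and Anxa2 still passed without Fl/Fl replicate 1 (limma adjusted p of 0.0251 and 0.0192), and the other 6 did not, with adjusted p between 0.0569 for Anxa3 and 0.231 for S100a6. Anxa5 and S100a6 also lost their calls without Fl/Fl replicate 2 (0.108 and 0.145), without null replicate 4 (0.0565 and 0.0876) and without null replicate 5 (0.0507 and 0.0616), and S100a6 without null replicate 3 (0.0535). In 11 of the 21 members every null array lay below both Fl/Fl arrays, against 8.39% of all genes.

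YAP is a co-activator that enters the nucleus in spread cells and acts through TEAD factors. Of 24 measured Hippo pathway genes and YAP targets, 0 rose and 3 fell, against 0.517% of all genes that fell, and the median was -0.60. In 13 every null array lay below both Fl/Fl arrays, against 8.39% of all genes. In 1 every null array lay above, against 4.51% of all genes. Ccn1 (Cyr61), a secreted matrix protein and a classical YAP target, read 665, 325, 557, 292 and 336 in null, against 1910 and 1447 in Fl/Fl (log2 -2.00 ± 0.35, limma adjusted p = 0.00701). Amotl2, an angiomotin that holds YAP in the cytoplasm and is itself a target, read 620, 586, 665, 457 and 423 in null, against 1156 and 1027 in Fl/Fl (limma adjusted p = 0.0225). Igfbp3, which binds insulin-like growth factors outside the cell, read 381, 286, 359, 300 and 279 in null, against 952 and 823 in Fl/Fl (log2 -1.46 ± 0.21, limma adjusted p = 0.000994). None of these groups overlapped. Igfbp3 passed without Fl/Fl replicate 1 (limma adjusted p = 0.0254), while Ccn1 and Amotl2 did not (0.127 and 0.251). The call of Amotl2 ended also without Fl/Fl replicate 2 (0.0533) or null replicates 4 and 5 (0.0565 and 0.052). F3, the tissue factor of blood clotting and the largest difference that did not pass, read 56, 30, 34, 21 and 24 in null, against 109 and 118 in Fl/Fl (limma adjusted p = 0.0602).

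The promoters of the genes that fell were searched for the TEAD motif GGAATG on both strands in the window from 250 bases before to 50 bases after the start site, as RefSeq places it on GRCm38.p6. Of the 67 genes that were lower in null at an intensity of 50 or more, 54 had a promoter sequence and 16 of these (29.6%) held the motif. The share was 13.7% of the 6499 measured genes at that level with a promoter and 15.3% of all 14368 such genes. A gene with several start sites was counted once, as holding a motif if any of its windows did. The motif TGANTCA of AP-1 was in 7.41% of the 54, against 5.31% and 7.5%. The CArG box of SRF was in 2 of the 54 (3.7%), against 1.69% and 1.59%. Only CC, 6 letters A or T and GG, without mismatch, counted as a CArG box. The motif GGCGCC, bound by BMP-activated SMADs, was in 33.3% of the 54, against 27.2% and 20.4%. Of the 15 genes higher in null at that level, 13 had a promoter. The TEAD motif was in 15.4% of these, AP-1 in 0%, the CArG box in 15.4% and GGCGCC in 23.1%. A match is a run of letters, and it does not show that a factor binds there. Promoters of 5 genes from the contractile, annexin and YAP lists are printed because they hold the TEAD letters, with GGAATG or its reverse complement CATTCC in capitals, 5′ to 3′ on the strand of the gene. They lie at chr19:34255324-34255623 (minus strand) for Acta2, chr1:172499996-172500295 (plus) for Tagln2, chr19:20390622-20390921 (minus) for Anxa1, chr3:145649936-145650235 (minus) for Ccn1 and chr9:102717554-102717853 (plus) for Amotl2. Tagln2 holds 2 matches and the other promoters 1 each, and 0 of them overlap a match to another motif.
Acta2: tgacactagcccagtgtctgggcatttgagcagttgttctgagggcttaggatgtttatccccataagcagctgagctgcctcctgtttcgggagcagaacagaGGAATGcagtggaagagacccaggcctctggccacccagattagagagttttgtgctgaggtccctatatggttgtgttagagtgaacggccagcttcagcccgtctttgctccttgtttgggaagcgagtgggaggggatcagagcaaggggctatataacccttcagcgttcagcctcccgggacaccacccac
Tagln2: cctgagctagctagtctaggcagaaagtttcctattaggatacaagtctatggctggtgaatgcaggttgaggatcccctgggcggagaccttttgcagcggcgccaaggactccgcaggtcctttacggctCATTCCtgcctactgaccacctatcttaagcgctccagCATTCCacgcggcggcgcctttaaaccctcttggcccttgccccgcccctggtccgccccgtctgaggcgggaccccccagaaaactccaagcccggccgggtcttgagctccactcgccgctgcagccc
Anxa1: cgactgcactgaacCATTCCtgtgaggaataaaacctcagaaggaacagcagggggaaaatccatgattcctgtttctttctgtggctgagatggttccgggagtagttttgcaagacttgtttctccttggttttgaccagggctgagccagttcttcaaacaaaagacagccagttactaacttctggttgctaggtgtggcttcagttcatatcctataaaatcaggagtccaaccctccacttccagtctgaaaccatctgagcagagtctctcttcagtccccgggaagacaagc
Ccn1: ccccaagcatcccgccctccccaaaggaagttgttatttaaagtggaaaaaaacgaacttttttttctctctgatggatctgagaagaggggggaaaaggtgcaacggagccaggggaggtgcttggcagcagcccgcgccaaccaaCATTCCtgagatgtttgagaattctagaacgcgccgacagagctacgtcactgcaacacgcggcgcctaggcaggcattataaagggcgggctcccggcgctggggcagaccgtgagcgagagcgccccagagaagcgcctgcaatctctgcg
Amotl2: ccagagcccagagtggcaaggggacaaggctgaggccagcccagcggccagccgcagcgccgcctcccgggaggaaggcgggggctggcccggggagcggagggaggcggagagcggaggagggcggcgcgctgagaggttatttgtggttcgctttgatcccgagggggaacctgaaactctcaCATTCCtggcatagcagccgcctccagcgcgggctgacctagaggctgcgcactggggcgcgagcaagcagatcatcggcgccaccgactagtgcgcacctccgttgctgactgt

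Among 27 measured BMP ligands and targets 0 rose and 1 fell. Id3, an inhibitor of basic helix-loop-helix factors and a direct BMP target that supports self-renewal in mouse ES cells, read 142, 170, 116, 123 and 92 on the null arrays, against 736 and 762 on the Fl/Fl arrays (log2 -2.53 ± 0.36, limma adjusted p = 0.000977). The groups were far apart, and the call held in 20 of 20 alternative settings. Bmp4, the ligand upstream of Id3, read 17, 22, 9, 20 and 15 in null, against 73 and 110 in Fl/Fl, and did not pass (limma adjusted p = 0.0908).

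Genes of the Wnt pathway moved in both directions, with 1 of 33 measured members higher, 2 lower and a median of -0.06. Lef1, a nuclear factor that pairs with beta-catenin, read 358, 236, 459, 572 and 612 in null, against 137 and 126 in Fl/Fl (log2 1.66 ± 0.36, limma adjusted p = 0.0345). Axin2, a feedback inhibitor and a common readout of Wnt signalling, read 19, 36, 30, 20 and 9 in null, against 78 and 93 in Fl/Fl (log2 -1.84 ± 0.35, limma adjusted p = 0.014). Wls, the carrier that brings Wnt ligands to the cell surface, read 23, 15, 16, 16 and 16 in null, against 78 and 90 in Fl/Fl (log2 -2.06 ± 0.35, limma adjusted p = 0.00581). Lef1 was high and Axin2 and Wls were low on every null array. Without Fl/Fl replicate 1 the adjusted p of Lef1 and Axin2 was 0.198 and 0.0778, and without Fl/Fl replicate 2 it was 0.156 and 0.092, while Wls passed with any 1 day 2 array left out. Lef1 failed also without null replicates 3, 4 and 5 (0.0645, 0.0836 and 0.0821).

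The genes that rose were fewer and were spread over several classes, with 1 or 2 in each list that held any. Of 22 measured genes of the formative and primed epiblast, the stage after exit from the naive state, 1 rose and 0 fell, the median was 0.36, and in 11 every null array lay above both Fl/Fl arrays, an order seen in 4.51% of all genes. Foxd3, a forkhead repressor needed in epiblast and neural crest, read 76, 75, 78, 86 and 68 in null, against 25 and 30 in Fl/Fl (log2 1.36 ± 0.16, limma adjusted p = 0.000152). Foxd3 lay within a narrow range on all null arrays and passed in 20 of 20 alternative settings. Otx2, the factor that drives the move out of the naive state, read 1781, 1520, 1630, 1714 and 1582 in null, against 550 and 716 in Fl/Fl, and did not pass (log2 1.38 ± 0.49, limma adjusted p = 0.274). Its groups at day 2 were far apart, but the test takes its spread from all days. Fgf5, the usual marker of primed epiblast, read 588, 611, 414, 383 and 347 in null, against 268 and 263 in Fl/Fl (log2 0.77, limma adjusted p = 0.742). A dimmer probe set of Fgf5 averaged 126.6 in null and 26.5 in Fl/Fl (log2 2.18, limma adjusted p over all probe sets = 0.0754). With null replicates 3 to 5 alone, 6 of the 22 rose and 1 fell, against 514 and 1388 of all 18194 genes. With null replicates 1 and 2 alone 1 rose, against 30 of all genes.

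Of 26 measured early neural genes 1 rose and 0 fell, at a median of 0. Sox1, the earliest factor of the neural plate, read 23, 20, 44, 82 and 72 on the null arrays, against 12 and 11 on the Fl/Fl arrays (log2 1.57 ± 0.33, limma adjusted p = 0.0294). All null arrays lay above Fl/Fl, and those with high Eif2s3y lay above the others, with log2 differences of 2.13 on null replicates 3 to 5 and 0.72 on null replicates 1 and 2. The call of Sox1 was lost without Fl/Fl replicate 1 (limma adjusted p = 0.166), Fl/Fl replicate 2 (0.126) or null replicates 3 and 5 (0.0535 and 0.0603). Nes, the intermediate filament of neural progenitors, lay the other way without passing, with 124, 88, 106, 82 and 68 in null, against 170 and 186 in Fl/Fl (log2 -0.93, limma adjusted p = 0.381). Sox1 and Foxd3 also stand in the list of developmental regulators known as Polycomb targets, where they were the 2 calls among 57 measured genes, 43 of which were near the floor. Gbx2, a homeobox factor that ES cells and the hindbrain share, read 328, 209, 361, 372 and 388 in null, against 65 and 112 in Fl/Fl (limma adjusted p = 0.0582). Fgf15, a secreted FGF of the early neural tube and the 1 call among 26 FGF pathway genes, read 24, 32, 18, 27 and 17 in null, against 5 and 10 in Fl/Fl (log2 1.27 ± 0.20, limma adjusted p = 0.00337). Fgf15 was low in both genotypes, and the groups did not overlap. Leaving out Fl/Fl replicate 1 gave an adjusted p of 0.133.

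The largest rise was in a metal transporter. Slc39a8 (ZIP8), which brings zinc and manganese into cells, read 74, 55, 279, 188 and 201 in null, against 15 and 17 in Fl/Fl (6.94-fold, log2 2.80 ± 0.52, limma adjusted p = 0.011). The null arrays with high Eif2s3y were the higher ones, and without Fl/Fl replicate 1 the adjusted p was 0.111. Slc40a1, ferroportin, the exporter of iron, went the other way with 216 ± 55.6 in null and 537 ± 49.5 in Fl/Fl (log2 -1.34, limma adjusted p = 0.0345). Slc40a1 did not pass without Fl/Fl replicates 1 and 2 in turn (limma adjusted p of 0.159 and 0.185) or null replicates 4 and 5 (0.0836 and 0.0818). These were the 2 calls among 17 measured metal transport and metallothionein genes.

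Spon1, a matrix protein known from the floor plate of the neural tube, read 239, 192, 156, 142 and 178 in null, against 40 and 53 in Fl/Fl (log2 1.87 ± 0.27, limma adjusted p = 0.00108), and passed in 20 of 20 alternative settings. Mcf2 read 54, 63, 72, 67 and 104 in null, against 23 and 19 in Fl/Fl (log2 1.58, limma adjusted p = 0.000676). Tyms, which makes thymidylate for DNA synthesis and was the 1 call among 29 cell cycle genes, averaged 98.6 ± 10.7 in null and 42.5 ± 9.19 in Fl/Fl (log2 1.15, limma adjusted p = 0.00337). The rise of Tyms rests on 1 probe set. Another averaged 42.4 in null and 39.5 in Fl/Fl (log2 0.09), and the rest lay near the floor. The remaining rises among well measured genes were Slc35d3, Them6, Plin3, Hacd2, Tyro3, Trappc5, Mrpl57, Adh5 and Ssu72, with log2 differences between 0.35 for Ssu72 and 1.52 for Slc35d3. Plin3 coats lipid droplets, Hacd2 takes part in the elongation of very long fatty acids and Tyro3 is a receptor tyrosine kinase. Spon1, Mcf2 and Slc35d3 passed without Fl/Fl replicate 1, and Tyms, Them6, Plin3, Hacd2, Tyro3, Trappc5, Mrpl57, Adh5 and Ssu72 did not, with adjusted p between 0.0778 for Adh5 and 0.613 for Mrpl57. Of these, Hacd2, Tyro3, Trappc5, Mrpl57 and Adh5 also missed the threshold without null replicate 3, 4 or 5, at adjusted p of 0.0533 to 0.089, Tyro3 without null replicate 2 (0.0542) and Adh5 without Fl/Fl replicate 2 (0.304).

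Genes that fell outside the cytoskeletal classes included signalling and stress genes. Cebpd, a transcription factor of the acute response that STAT3 is known to induce, read 11, 9, 8, 9 and 8 on the null arrays, against 58 and 54 on the Fl/Fl arrays (log2 -2.21 ± 0.21, limma adjusted p = 5.02e-06). Gadd45b, a stress response gene, read 61, 61, 74, 52 and 78 in null, against 304 and 299 in Fl/Fl (log2 -2.16 ± 0.45, limma adjusted p = 0.0276). Irs1, the docking protein of insulin and IGF receptors, read 16, 16, 17, 14 and 10 in null, against 86 and 94 in Fl/Fl (log2 -2.35 ± 0.45, limma adjusted p = 0.0157). The null arrays of Cebpd and Irs1 lay near the floor, and those of Gadd45b near a level of 60, with no null array close to Fl/Fl. Cebpd passed without Fl/Fl replicate 1 (limma adjusted p = 0.000173), while Gadd45b and Irs1 did not (0.194 and 0.109). Nor did they without Fl/Fl replicate 2 (0.104 and 0.0806), or Gadd45b without null replicate 4 (0.0631). Of 24 measured LIF receptor and STAT3 response genes, a list that does not hold Cebpd, 0 passed by limma, 6 had an unadjusted p under 0.05 (9.65% of all genes did) and the median was -0.18.

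Pmp22, a membrane protein of myelin and of epithelia, read 8, 11, 31, 21 and 26 in null, against 129 and 135 in Fl/Fl (log2 -2.65, limma adjusted p = 0.0136). Nuak1, a kinase of the AMPK family, averaged 16.2 ± 6.3 in null and 98.5 ± 6.36 in Fl/Fl (log2 -2.40, limma adjusted p = 0.0162). Card10, a scaffold that leads to NF-kappaB, read 57, 17, 30, 15 and 54 in null and 184 on both Fl/Fl arrays (log2 -2.45, limma adjusted p = 0.0345). Fhl1, a LIM protein of striated muscle on the X chromosome, read 359, 345, 144, 115 and 144 in null, against 1006 and 1074 in Fl/Fl (log2 -2.37, limma adjusted p = 0.0225). Serpinh1, the chaperone of collagen, averaged 324 ± 32.9 in null and 910 ± 115 in Fl/Fl (log2 -1.48, limma adjusted p = 0.0484). Without Fl/Fl replicate 1 the adjusted p of Pmp22, Nuak1, Card10 and Fhl1 lay between 0.109 and 0.232, and without Fl/Fl replicate 2 that of Serpinh1 was 0.249. Pmp22, Nuak1, Card10 and Fhl1 gave 0.066, 0.0592, 0.126 and 0.103 without Fl/Fl replicate 2, and Serpinh1 gave 0.199 without Fl/Fl replicate 1. With null replicates left out, Card10 failed without 2, 3 or 4 (0.0553 to 0.0824), Fhl1 without 4 or 5 (0.0565 and 0.0549) and Serpinh1 without 2, 3, 4 or 5 (0.0613 to 0.0985).

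Of 26 measured trophoblast genes other than keratins 0 rose and 3 fell. Tfap2c, a factor of trophoblast and primordial germ cells, read 169, 164, 85, 124 and 161 in null, against 348 and 403 in Fl/Fl (log2 -1.43, limma adjusted p = 0.0416). The others were Slc2a3, the glucose transporter GLUT3, which was 7477 ± 641 in null and 11548 ± 258 in Fl/Fl (log2 -0.63, limma adjusted p = 0.00701), and Bex1, which was 14461 ± 1739 in null and 21857 ± 1426 in Fl/Fl (log2 -0.60, limma adjusted p = 0.0412). Slc2a3 and Bex1 are abundant in ES cells. The summed intensity of 6 trophoblast markers was also lower in null, at 109 to 129 in null and 159 to 174 in Fl/Fl, with 4 of the 6 under 20 on every array and 0 of the 6 past the test. Eomes, which is also a streak gene, read 48, 57, 63, 55 and 68 in null, against 87 and 110 in Fl/Fl. The part of these markers in the result was not tested. Without Fl/Fl replicate 1 the adjusted p of Slc2a3, Bex1 and Tfap2c was 0.093, 0.384 and 0.193, and without Fl/Fl replicate 2 that of Bex1 and Tfap2c was 0.0866 and 0.217. Bex1 and Tfap2c also failed without null replicates 3 to 5 in turn, at 0.059 to 0.099 and 0.0616 to 0.0924.

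**Figure D3:**
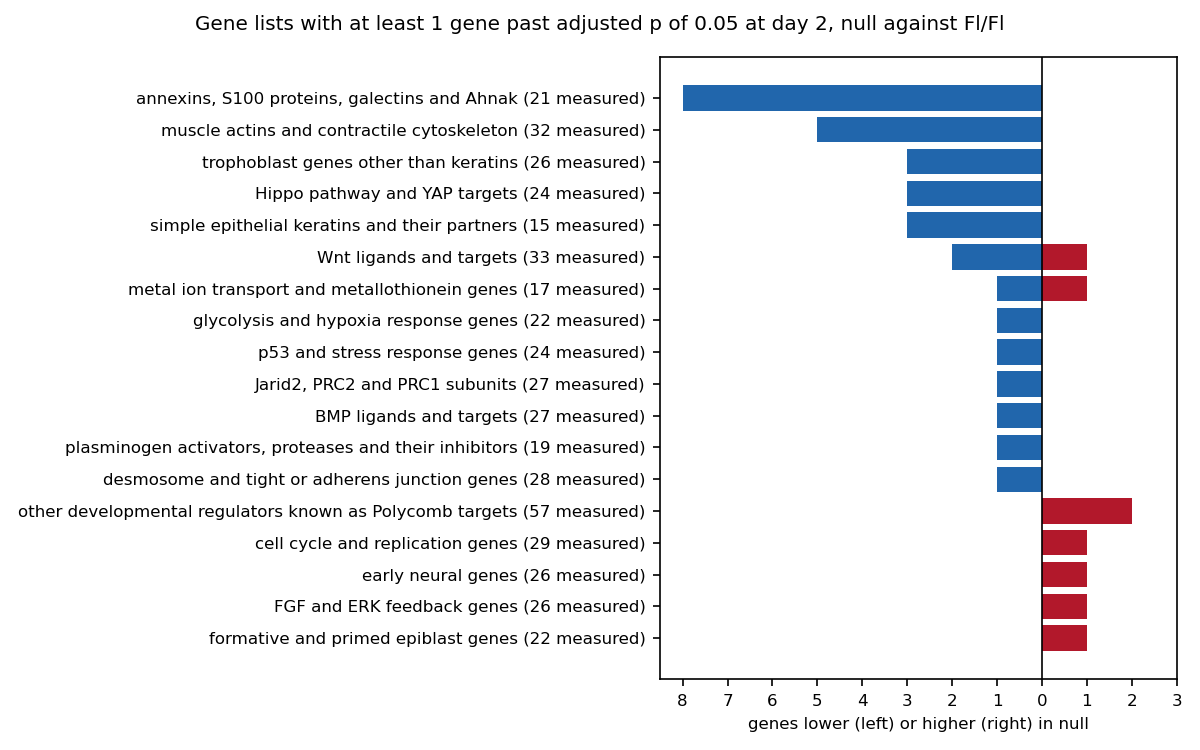
Number of genes lower (left) and higher (right) in null at day 2 for each list with at least 1 gene past an adjusted p of 0.05, with the number of measured genes beside the name. The annexin list has 8 lower genes of 21 and the contractile list 5 of 32, and 5 lists hold higher genes only.

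Among 27 measured Jarid2, PRC2 and PRC1 genes 0 rose and 1 fell. Phc2, a polyhomeotic subunit of PRC1 that takes part in clustering the complex, read 234, 198, 248, 265 and 250 in null, against 440 and 490 in Fl/Fl (log2 -0.95 ± 0.17, limma adjusted p = 0.00849). The adjusted p without Fl/Fl replicate 2 was 0.0698. Pcgf5, a subunit of a variant PRC1, read 129, 137, 140, 137 and 136 in null, against 223 and 269 in Fl/Fl (log2 -0.83, limma adjusted p = 0.0784). Of 33 measured Hox genes 0 passed and 0 had an unadjusted p under 0.05, and 31 of them were near the floor.

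The pluripotency network and the streak genes did not separate the genotypes by the test at day 2. Of 22 core pluripotency genes and 21 naive genes measured, 0 passed in either list, at medians of -0.11 and -0.14. Pou5f1 read 8352, 8128, 6575, 6991 and 6915 in null, against 7441 and 7848 in Fl/Fl (log2 -0.05), and Sox2 differed by 0.35 (limma adjusted p = 1 and 0.842). Nanog read 614, 611, 794, 836 and 900 in null, against 1376 and 1512 in Fl/Fl, and did not pass (log2 -0.96, limma adjusted p = 0.454). The groups overlapped for Pou5f1 and did not overlap for Nanog. At an unadjusted p under 0.05 there was 1 gene in the core list and there were 8 in the naive list, against 9.65% of all genes.

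Of 25 measured primitive streak and nascent mesoderm genes, 0 passed, 1 had an unadjusted p under 0.05, and 18 were near the floor. Lefty2, a Nodal inhibitor of that list, was not, and averaged 236 ± 15.6 in null and 593 ± 80.6 in Fl/Fl at day 2 (SD, n = 5 and 2). Mixl1, which marks the streak, read 5 on all 7 day 2 arrays. At day 4 Mixl1 averaged 9.8 ± 9.63 in null and 2037 ± 103 in Fl/Fl (SD, n = 5 and 2), and at day 6 it averaged 2701 ± 1500 in null and 1750 ± 131 in Fl/Fl. Eomes, a T-box factor of the streak, read 48 to 68 in null, against 87 and 110 in Fl/Fl at day 2 (log2 -0.72, limma adjusted p = 0.91). The classes above therefore differed on arrays on which Mixl1 was at the floor in both genotypes, and Eomes was low in both. T itself is not analysed here.

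**Figure D4:**
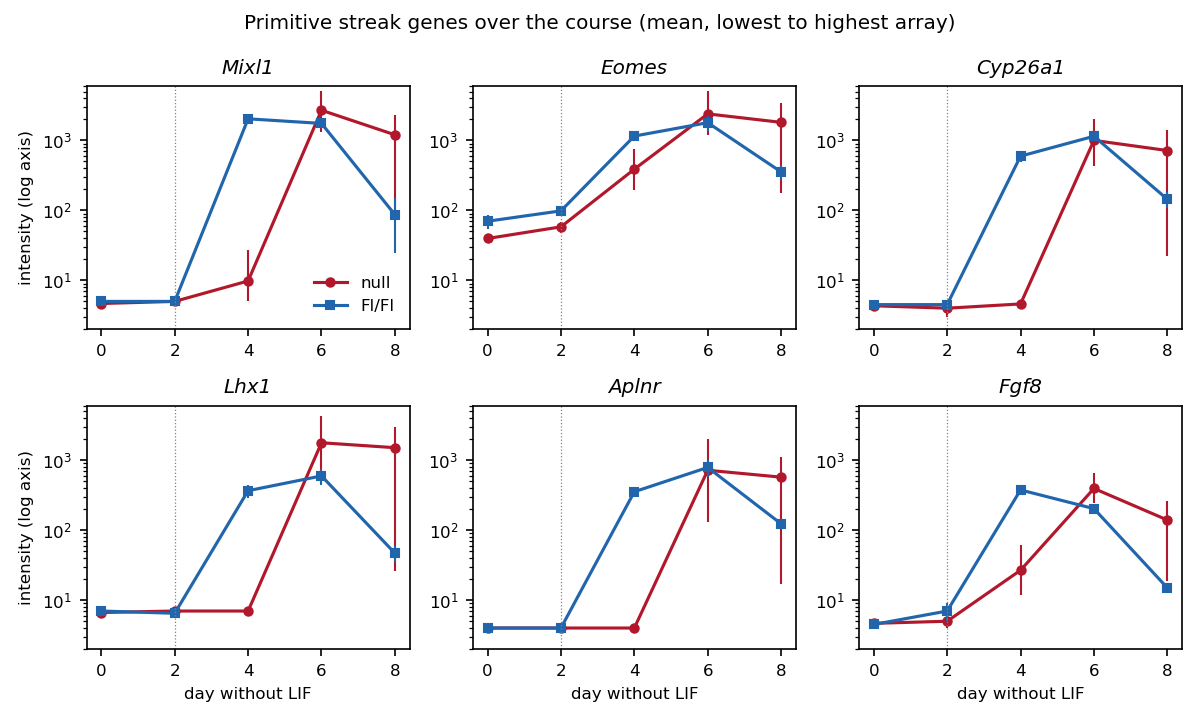
Intensity (log axis) of 6 primitive streak genes by day without LIF; points are group means, vertical bars run from the lowest to the highest array, and the dotted line marks day 2. At day 2 the genotypes are near the floor for Mixl1, Cyp26a1, Lhx1, Aplnr and Fgf8, and at day 4 Fl/Fl is above null in each panel.

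The day 0 arrays, 3 null and 2 Fl/Fl, share no array with day 2 and show how far the differences were there before LIF was withdrawn. On the null day 0 arrays Eif2s3y read 259, 768 and 981, Meg3 read 695, 26 and 27, and the actin ratio was 2.024, 1.43 and 1.386. The mix of null arrays thus differed from that of day 2, and its part in the comparison of the days was not tested. At day 0, 45 genes were higher in null (0.247%) and 169 lower (0.929%). Of the 67 well measured genes lower at day 2, 65 pointed the same way at day 0 and 26 had passed there, which is 38.8% of the day 2 list and 15.4% of the day 0 list. Their median log2 difference was -1.48 at day 2 and -0.85 at day 0. Of the 15 higher genes, 15 pointed the same way and 5 had passed, 33.3% of the day 2 list and 11.1% of the day 0 list, with medians of 1.15 at day 2 and 0.62 at day 0. Both sets were picked by their day 2 values, which by itself tends to make the day 2 difference the larger. The medians therefore do not show that the genotypes moved apart after LIF was withdrawn. Dsp, Krt8, Krt18, Krt19, Acta2, Tagln, Tpm1, Anxa1, Anxa2, Anxa3, Anxa5, Foxd3 and Slc39a8 were among those that had passed at day 0. Krt8, for example, read 438, 338 and 147 in null, against 2196 and 3197 in Fl/Fl at day 0 (log2 -3.23, limma adjusted p = 0.0011). Dsp read 79, 33 and 34 in null, against 597 and 497 in Fl/Fl at day 0 (log2 -3.49, limma adjusted p = 0.00145).

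Other genes passed at day 2 but not at day 0. Lgals3 read 406, 121 and 143 in null, against 241 and 461 in Fl/Fl at day 0, where the groups overlapped (log2 -0.78, limma adjusted p = 0.609). Id3 read 325, 526 and 659 in null, against 1260 and 1161 in Fl/Fl at day 0 (log2 -1.32, limma adjusted p = 0.108). Wls differed by -0.37 and Gadd45b by -0.60 at day 0 (limma adjusted p = 0.86 and 0.747), and Spon1 by 0.76 (0.273). Sox1, Slc35d3 and Tyms differed by 0.08, 0.05 and 0.15 at day 0. The change of the difference between the days was tested in the same fit, and 14 genes (0.0769%) passed, none of them a well measured gene called at day 2. So the data do not show for Lgals3, Id3, Wls, Gadd45b, Spon1 or Sox1 that the difference was larger at day 2 than at day 0. Otx2 had passed at day 0, with 591, 554 and 473 in null, against 57 on both Fl/Fl arrays (log2 3.15, limma adjusted p = 0.00381), a difference that was 1.38 at day 2.

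**Figure D5:**
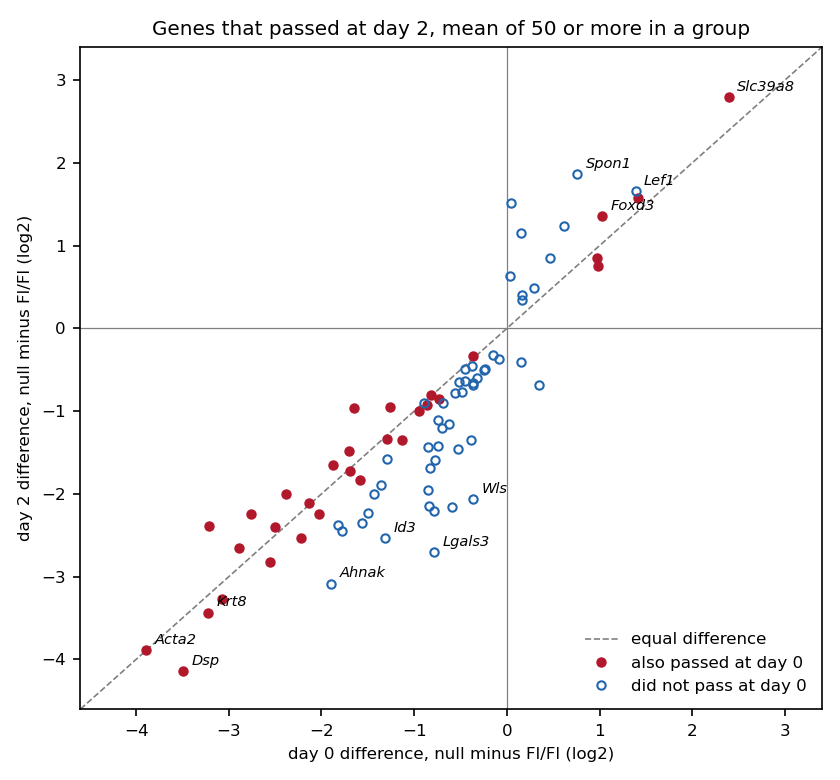
Log2 difference, null minus Fl/Fl, at day 0 (horizontal) and day 2 (vertical) for the 82 genes that passed at day 2 with a mean of 50 or more in a group; filled points also passed at day 0 and the dashed line marks equal differences. Of the 67 lower genes 65 lie below 0 on both axes, and the 15 higher genes lie above 0 on both.

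Classes that could come with other cell types were at low levels. The summed intensity of 9 fibroblast and feeder cell markers was 118 to 194 in null and 208 to 242 in Fl/Fl, with 5 of the 9 under 20 on every array. The 5 primitive endoderm markers summed to 115 to 158 in null and 119 to 143 in Fl/Fl, with 4 under 20 on every array. The 4 neural markers summed to 135 to 184 in null and 203 to 224 in Fl/Fl. The lower sums lean on single genes, Col1a1 for fibroblasts, Nes for neural cells and Eomes for trophoblast. Col1a1 read 34, 39, 39, 19 and 38 in null, against 135 and 89 in Fl/Fl (limma adjusted p = 0.248). Pdgfrb, another fibroblast marker, read 9, 22, 20, 23 and 25 in null, against 16 on both Fl/Fl arrays. The neural marker Sox1 was higher in null. In these bulk samples fewer cells of a type and less RNA per cell cannot be told apart, and the part of the fibroblast, trophoblast and neural marker sums, which were lower in null, in the fall of the cytoskeletal genes was not tested. Of 28 measured fibroblast matrix genes 0 passed by limma and 2 had an unadjusted p under 0.05, and of 26 integrins and adhesion receptors 0 passed and 6 had one. In the basement membrane list 0 of 16 passed by limma, with 7 at an unadjusted p under 0.05, against 9.65% of all genes, and a median of -0.54. Col4a2, a collagen IV chain, had the largest difference of that list, at 31 ± 17.9 in null and 116 ± 31.8 in Fl/Fl (limma adjusted p = 0.246).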

How the data were processed

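The authors deposited 1 linear intensity per probe set and array as a whole number, made from biotin-labelled cRNA per the labels. How they corrected, normalized and summarised the probes is not stated in the labels. Of 45101 probe sets, 34958 name 1 gene in the platform annotation, matched by gene identifier to the RefSeq table of GRCm38.p6, and those with several genes or none were left out. Each gene was read from its brightest probe set, by the mean of log2(intensity + 4), and no gene was removed for low signal. limma 3.58.1 in R 4.3.3 fitted 1 mean for each of the 10 groups of genotype and day over all 30 arrays (20 residual degrees of freedom), and contrasts were tested two-sided with Benjamini-Hochberg adjustment over 18194 genes. The number of arrays limits the precision, above all the 2 Fl/Fl arrays.

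The members and the 36 gene lists were chosen with earlier results of these data known. Genes were named by a rule: fixed genes, the 20 largest rises and falls, every list member past the threshold, the largest difference in each list that did not pass, and the 5 largest changes between the days in each direction. Genes outside it were picked after their values were seen. In simulated data the fit recovered 77% of 100 genes changed by 1 and 98% of 100 changed by 2 on the log2 scale for the day 2 comparison of 18194 genes, and called 14 unchanged genes. Alternatives changed the pseudocount, normalization, gene filter, probe set choice, arrays in the fit, variance prior, replicate block and kind of null array, and left out each array.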

Additional observations from a re-analysis of the deposited data

Results flagged for a closer look

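Within the 5 null arrays, the gap test applied to the 105 named genes set 5 values apart from the other null arrays, and chance alone sets apart about 1 in 20 groups. Acta1 read 92 on null replicate 3, against 11 to 18 on the other null arrays. Wls read 23 on null replicate 1 and 15 or 16 on the others. Tfpi, an inhibitor of blood clotting, read 270 on null replicate 5, against 175 to 201 on the others. Slc2a3 read 6357 on null replicate 2, the lowest null array, and Slfn2 read 7 on null replicate 1 and 6 on the others.

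The genotype difference at day 2 minus that at day 0 passed limma's test for 8 named genes. For Inhbb, a subunit of activin and inhibin, it was -1.88 on the log2 scale: the gene read 94, 97 and 102 in null and 15 and 32 in Fl/Fl at day 0, and 6 on every null array, against 6 and 5 in Fl/Fl, at day 2. For Fem1a, an adaptor of a ubiquitin ligase, it was -0.864, with 75, 77 and 89 in null, against 36 and 42 in Fl/Fl at day 0, and 79.4 ± 1.82 in null, against 73.5 ± 6.36 in Fl/Fl at day 2. The other changes were at levels near the floor and were -0.313 for Slfn2, 0.27 for Magef1, 0.2 for Csrnp3, 0.676 for St18, 0.398 for Fbxw18 and 1.06 for Ly6g6e.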

How the results depend on the processing

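Of the settings tried, pseudocounts of 1 and 16, the variance trend and the mean over probe sets kept every count of day 2 calls within 1.5 times of the 113, 19 higher and 94 lower reported. Quantile normalization gave 29 higher genes, the fit of the day 2 arrays alone 38 higher, and the fit without the null day 8 arrays 189 genes with 30 higher and 159 lower. With the replicate number as a block, 61 genes passed with 48 lower, and 51 of the 113 were among them. Same-numbered arrays of the genotypes correlated in their deviations at r = 0.0329 and 0.185 across genes at day 2. The deviations of the 2 Fl/Fl arrays from their mean mirror each other, and null replicate 2 gave -0.185 with Fl/Fl replicate 1. These values therefore cannot show whether same-numbered arrays share more than a number. Null arrays with Eif2s3y above 500 alone gave 1902 genes (514 higher, 1388 lower), the other null arrays alone 53 (30 higher, 23 lower), and a fit that weights both kinds equally 415 (107 higher, 308 lower). Leaving out 1 array at a time gave 66 to 244 genes, 13 to 36 higher and 51 to 223 lower. The lowest total came without null replicate 4, and the highest came without Fl/Fl replicate 2. The count for the change between the days, 14, was 22 after quantile normalization, 1 after centring on the 75th percentile, 0 without the dimmest 40% of genes, 31 with the arrays of those days alone, 139 and 236 with null arrays of Eif2s3y above 500 or not, 191 with both kinds weighted equally, and 13 to 252 with 1 array left out. The cause was not tested.

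Directions turned for 2 called genes with the mean over probe sets, where 75 of the 113 still passed: Sptbn1 was 0.132, against -0.374 as reported, and Cpeb3 was 0.00252. Under the other settings the called genes kept theirs, and these genes that had not passed turned. Under the block, Ezh2 was 0.0365, Eed -0.0865, Suz12 -0.0413 and Eif2s3y -1.19. With the null arrays of low Eif2s3y, Pou5f1 was 0.109, Eed -0.0145, Suz12 -0.0467 and Eif2s3y -1.22. With those of high Eif2s3y, St18 was -0.013, and with 1 array left out Hoxa5 ran from -0.647 without Fl/Fl replicate 2 to 0.0107 without Fl/Fl replicate 1. Centring each array moved the median of all genes to 0.05, and 78 of the 113 genes still passed. With 2 Fl/Fl arrays, a spread pooled over all days and both group means under 20 in 8630 of the genes, a gene that did not pass may still differ. Other probe sets at a mean of 50 or more pointed the same way as the chosen one in 41 of 43 cases, the exceptions being those of Cask and Epb41l2, and over all other probe sets, most of them dim, in 72 of 117.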

Other observations

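The X chromosome held 11 of the 94 lower genes, which is 1.78% of its 617 measured genes, against 0.517% of all genes, and 1 higher gene, Mcf2. These counts include genes with means under 50 in both groups, Nxf2 and Syp among the 11. The X-linked genes described here were picked after their values were seen. Bex1, Bex3, Bex4 and Tceal9 belong to a family of small X-linked proteins that are abundant in ES cells, and all 4 fell. Bex3 read 4396, 4738, 3645, 3844 and 3697 in null, against 7085 and 7525 in Fl/Fl (log2 -0.85, limma adjusted p = 0.00526). Tceal9 read 3144, 3322, 2723, 2511 and 2426 in null, against 5214 and 5289 in Fl/Fl (log2 -0.90, limma adjusted p = 0.0408). Cul4b, the scaffold of an X-linked ubiquitin ligase, read 2905, 2412, 2279, 2038 and 2058 in null, against 3949 and 3529 in Fl/Fl (log2 -0.69, limma adjusted p = 0.00526). No null array of these genes reached Fl/Fl. Without Fl/Fl replicate 1, Bex1, Bex4, Tceal9 and Cul4b missed the threshold (0.384, 0.257, 0.251 and 0.111), Bex1, Bex4 and Tceal9 missed it without Fl/Fl replicate 2 (0.0866, 0.069 and 0.158) and without null replicates 3, 4 and 5 (0.0513 to 0.099), and Bex3 passed with any 1 day 2 array left out. The Bex genes resemble each other in sequence, and cross-hybridization between their probe sets was not tested. Over the 266 X-linked genes with a mean of 50 or more, the median difference from Fl/Fl was -0.24, -0.15 and -0.20 on null replicates 3 to 5, and -0.02 and -0.03 on replicates 1 and 2. The median over autosomal genes was -0.12, -0.07 and -0.10 on null replicates 3 to 5, and -0.02 and 0.05 on replicates 1 and 2. For the 654 such genes of chromosome 11 the median was 0.24 on null replicate 2 and between -0.05 and 0.10 on the other null arrays.

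Imprinted genes, which are read from 1 parental copy, leaned lower without passing. Of 36 measured, 0 passed by limma, 11 had an unadjusted p under 0.05, against 9.65% of all genes, and the median was -0.39. In 12 every null array lay below both Fl/Fl arrays, an order seen in 8.39% of all genes. Igf2, the fetal growth factor read from the paternal copy, read 161, 72, 25, 39 and 33 in null, against 324 and 433 in Fl/Fl (limma adjusted p = 0.187). The list median was -0.18 and -0.09 on null replicates 1 and 2, and -0.46, -0.35 and -0.55 on replicates 3 to 5, where Meg3 was also low. With null replicates 3 to 5 alone, 13 members fell and 1 rose, against 1388 and 514 of all 18194 genes. Among 15 measured G1 cyclins and CDK inhibitors 0 passed and 0 had an unadjusted p under 0.05, at a median of -0.26. Among 17 DNA methylation genes and 22 histone demethylases of the JmjC and related families 0 passed, with 5 and 3 at an unadjusted p under 0.05 and medians of 0.06 and 0.11.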
